A study of Canis lupus familiaris with 11 samples.

Results

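The 38 genes described here encode the enzymes and transporters of glycolysis and the core of the hypoxia response. They were chosen by gene name, with no threshold on a measured value. The set holds 11 genes of glucose entry and the upper glycolytic steps, 6 of the lower steps, 3 PFKFB enzymes, 5 genes of lactate and pyruvate handling, 4 of oxygen sensing and 9 hypoxia targets. All 38 were found in the deposited table of 26178 genes, and 38 of 38 passed the filter on low counts. For 13 of the 38 the table held more than 1 row with the gene's symbol, and the row on the gene's own chromosome was used. The copies matter for GAPDH, where 82 other rows carried 34.1% of the symbol's reads, for ENO1, with 4.53% in other rows, and for LDHB, with 2.46%. Reads of such near-identical copies may be divided between rows by the counting, so the levels of these 3 genes are uncertain to that extent.

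RNA was sequenced from MDCKII cells, a line of kidney epithelium from the dog that grows as a tight polarised sheet. The study asked, by its title, how lateral compression acts on an epithelium and what lamin A contributes. Lamin A, a product of LMNA, is a filament protein of the nuclear lamina. Wild-type (WT) cells and a derived line without LMNA (KO) were compared. WT control cells (3 libraries) and KO control cells (2 libraries) were taken as a confluent sheet after 3 to 4 d of growth. WT compressed cells (3 libraries) and KO compressed cells (3 libraries) had the same growth, then lateral compression and a 2 h recovery. All groups grew in serum-containing medium at the same temperature and carbon dioxide. How the compression was applied, whether the KO line was 1 clone, and the oxygen and glucose levels at harvest are not stated in the labels. The design text of the series names other time points and WT cells only, and the labels of the samples were followed. No sham handling or recovery time is named for controls, so compression cannot be told apart from handling or recovery time. Separate cultures are not named for the replicates either, so p-values measure no more than the spread among these libraries, part or all of which may be technical.

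Glycolysis splits glucose into pyruvate in the cytosol and yields ATP without oxygen. Hexokinase traps glucose in the cell, phosphofructokinase commits it to the pathway, and the PFKFB enzymes make or remove the sugar phosphate that switches phosphofructokinase on. When oxygen is low, the EGLN prolyl hydroxylases stop marking the alpha subunits of hypoxia-inducible factor (HIF) for destruction, and HIF then raises the transcription of many glycolytic genes and of VEGFA. Much of this control acts on HIF protein stability, which RNA levels do not show. Cells of the kidney tubule differ in their use of glycolysis, and cultured MDCKII cells are known to produce lactate.

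The libraries held 10420214 to 17999623 counts. LMNA, which spans bases 41699201 to 41719658 of chromosome 7 in CanFam3.1 (minus strand), stood at 679 to 1209 counts per 1e6 scaled counts (CPM) in the WT libraries and at 25.5 to 51.8 CPM in the KO libraries. Renal epithelial markers summed to 9437 to 13456 CPM in each library, with 14 of 14 found and 13 or 14 over 1 CPM in each group. Fibroblast and smooth muscle markers summed to 2.98 to 17.4 CPM (1 of 8 over 1 CPM in each group, PDGFRA, with DCN and LUM at 0). Endothelial markers summed to 0.09 to 4.33 CPM, with at most 1 of 6 over 1 CPM in a group, and immune markers to 0.0 to 1.55 CPM (0 of 5 over 1 CPM in any group, with PTPRC and CD3E at 0). Some libraries stood apart from their group. A chi-square per gene between replicates was 48.1 and 77.1 for WT control replicate 1 against 15.1 between the other WT controls. It was 16.3 and 22.9 for WT compressed replicate 3 against 6.09 between its partners, and 57.7 and 69.2 for KO compressed replicate 2 against 36.9. For some of the results that rest on these libraries, values without them are given as well.

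Per transcript length, the lower glycolytic enzymes other than ENO2 and both lactate dehydrogenases were the most abundant of the 38 genes. Levels between genes are compared in FPKM, fragments per kilobase of gene model scaled to library size, as deposited by the authors. GAPDH, the enzyme that oxidises glyceraldehyde phosphate, stood highest in every group, at 3093 ± 478 FPKM in WT control cells and 2915 ± 105 FPKM in WT compressed cells (SD, n = 3 each). It stood at 2696 ± 217 FPKM in KO control cells (SD, n = 2) and 3078 ± 691 FPKM in KO compressed cells (SD, n = 3). These 4 means differed by less than the spread within the WT control and KO compressed groups.

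The next genes in order of mean FPKM over the 11 libraries were LDHA at 1096, ENO1 (enolase) at 818, PGAM1 (phosphoglycerate mutase) at 777, LDHB at 419, PKM (pyruvate kinase) at 350 and PGK1 (phosphoglycerate kinase) at 331. In WT control cells LDHA, at 1296 ± 537 FPKM, and ENO1, at 886 ± 68.2 FPKM, did not differ beyond the spread of LDHA (SD, n = 3). Of the upper steps, TPI1, which interconverts the 2 triose phosphates, averaged 255 FPKM, ALDOA (aldolase) 214 FPKM, the glucose transporter SLC2A1 135 FPKM and the phosphofructokinase PFKP 132 FPKM. At the other end stood CA9, a carbonic anhydrase of hypoxic cells, at 0.758 FPKM, ANKRD37 at 0.640 FPKM and the glucose transporter SLC2A3 at 0.282 FPKM. SLC2A3 ranged from 0.124 to 1.36 CPM across the libraries, a level too low to compare groups. The plot of levels shows that each gene's 4 group means lay close together against the span between genes.

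**Figure D1:**
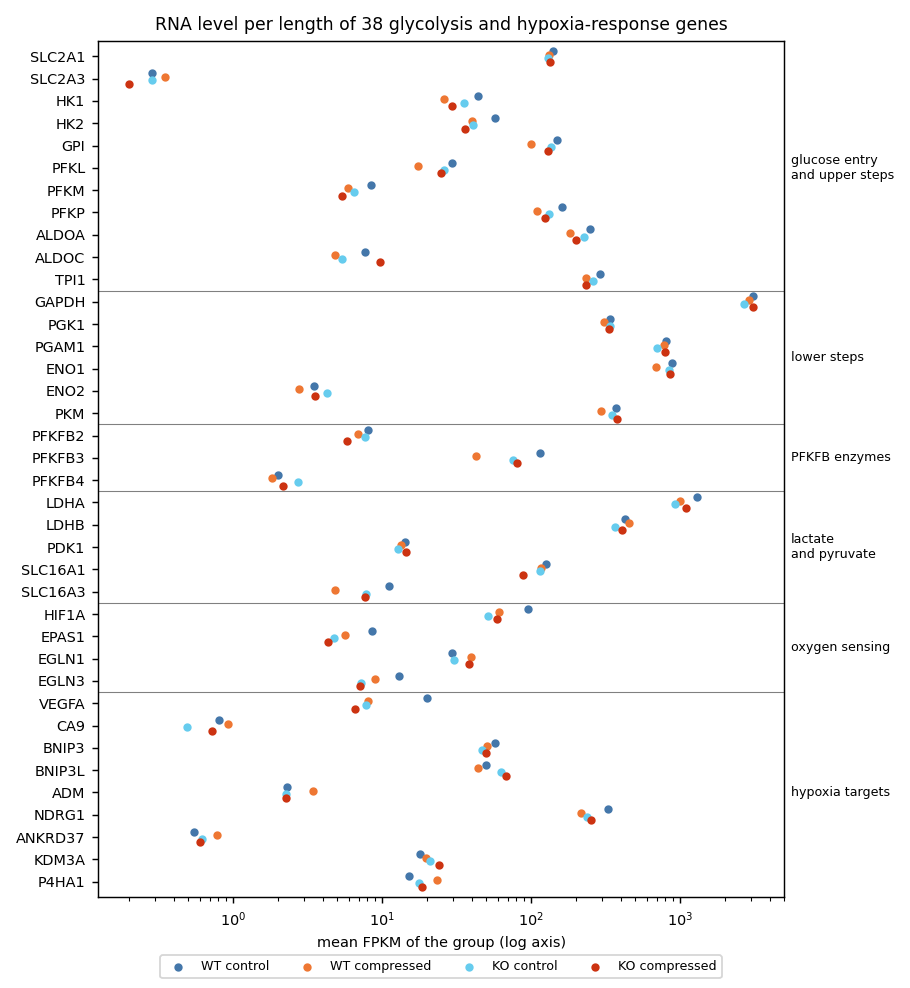
Mean FPKM (horizontal, log axis) of each of the 38 genes in the 4 groups, 1 colour per group, ordered by role. GAPDH is highest, at 2696 to 3093 FPKM, and SLC2A3 lowest, and the groups lie close together for each gene against the range between genes.

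Where several isoenzymes serve 1 step, a single form held most of the RNA, and most of these shares were alike in all groups. SLC2A1 made up at least 99.4% of the FPKM of the SLC2A1 and SLC2A3 pair in the 11 libraries, and ENO1 99.5% to 99.7% of the enolases. PFKP held 79.6% to 85.4% of the phosphofructokinases, the rest being the liver and muscle forms PFKL and PFKM. ALDOA held 94.3% to 98.3% of the 2 aldolases. The hexokinases were more even, with HK2 at 52.6% to 61.7%. Shares are given as a description, with no test.

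The shares of 4 sets differed between WT groups with no overlap of libraries, narrowly so for lactate dehydrogenase. Those of the glucose transporters, hexokinases, phosphofructokinases, aldolases, enolases, HIF alpha subunits and BNIP3 pair overlapped. For single genes in CPM, 21.2% of all genes tested lay wholly higher and 20.8% wholly lower in WT compressed cells. The non-overlap of these shares is therefore not unusual here. PFKFB3 held 88.5% to 94.9% of the PFKFB enzymes in WT control cells and 81.6% to 85.5% in WT compressed cells, with no overlap. PFKFB2 held 4.41% to 8.60% and then 11.4% to 14.9%. EGLN3, a prolyl hydroxylase that HIF itself induces, held 28.5% to 32.2% of the EGLN1 and EGLN3 pair in WT control cells. Its share was 16.7% to 20.9% in WT compressed cells, 18.4% and 19.9% in KO control cells and 7.03% to 24.4% in KO compressed cells, so every other library lay below every WT control library. SLC16A3, the lactate exporter MCT4, held 6.40% to 10.99% of the pair it forms with SLC16A1 (MCT1) in WT control cells and 2.90% to 5.07% in WT compressed cells. In KO compressed cells its share ran from 3.29% in replicate 2 to 11.95% in replicate 1. LDHA held 81.4% of lactate dehydrogenase in WT control replicate 1 and 68.7% to 74.8% in the other 10 libraries. Its share was 69.54% and 70.02% in the other WT controls and 68.7% to 69.4% in WT compressed cells.

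**Figure D2:**
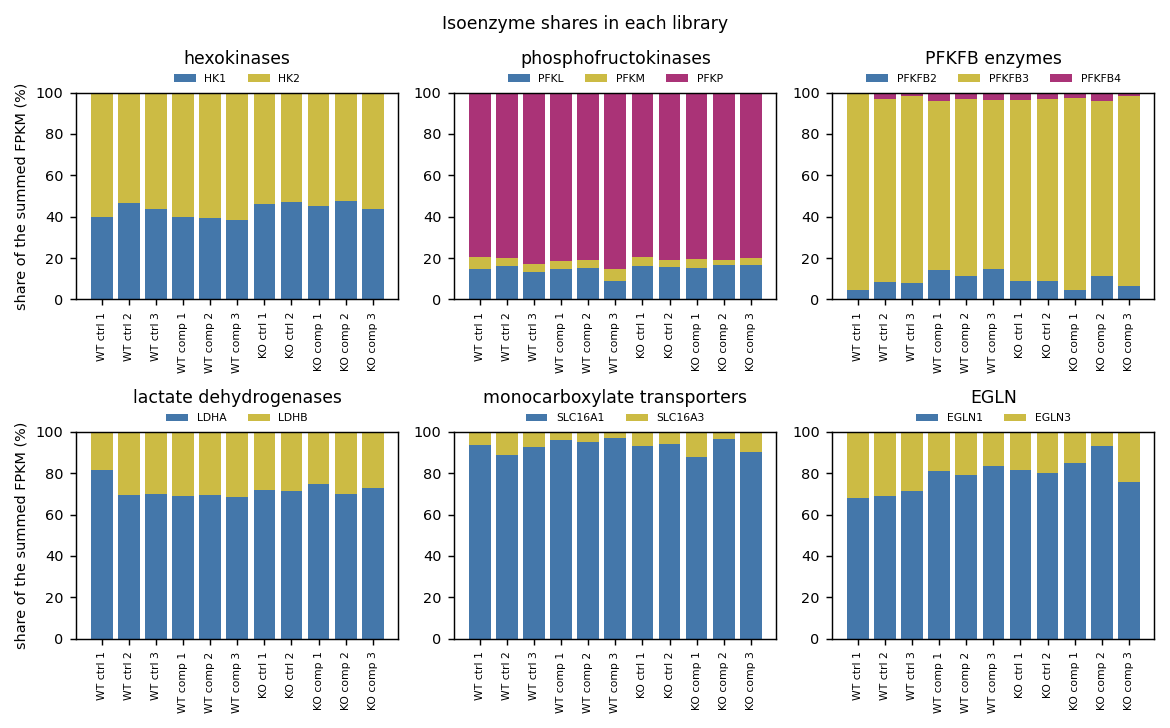
Share of the summed FPKM (%, vertical) held by each isoenzyme in each of the 11 libraries, in 6 sets with 1 bar per library. PFKFB3, EGLN3 and SLC16A3 hold smaller shares in the 3 WT compressed libraries than in the 3 WT controls, and LDHA reaches 81.4% in WT control replicate 1.

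The first comparison asks what compression and recovery did to these genes in WT cells. The hexokinase HK1 and PFKFB3, which makes the activator of phosphofructokinase, fell, and P4HA1, a collagen prolyl hydroxylase and hypoxia target, rose. Thus 3 of 38 genes (7.89%) had a Benjamini-Hochberg adjusted p under 0.05 in edgeR's quasi-likelihood fit, beside 6.25% of the 13560 genes tested. In each direction the shares were 1 of 38 beside 3.85% of all genes for higher RNA and 2 of 38 beside 2.4% for lower RNA. All adjusted p-values under the threshold in this comparison, over all genes, lay between 0.041 and 0.0499.

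The log2 fold changes of the set leaned to lower RNA. They were negative for 30 of 38 genes, 78.9% beside 51.5% of all genes tested, and their median was -0.31 beside -0.02. Between replicates of a group, the median log2 CPM of the 38 genes had a pooled SD of 0.17. Genes of the same library can vary together, so their signs are not independent of each other. For 16 genes (42.1%) every compressed library lay below every control library, beside 20.8% of all genes. Only P4HA1 and EGLN1 had every compressed library above every control, 5.26% beside 21.2%. At an unadjusted p under 0.05 by edgeR, 10 genes were lower, beside 16.4% of all genes, and 2 were higher, beside 15.4%. In bulk RNA, fewer cells that express a gene and less of its RNA per cell cannot be told apart. Together the 38 genes took 1.62%, 1.58% and 1.54% of the counts in WT control cells, 1.26%, 1.30% and 1.20% in WT compressed cells, 1.32% and 1.37% in KO control cells and 1.55%, 1.07% and 1.41% in KO compressed cells. Other measures moved between the WT groups as well. The renal epithelial markers summed to 10306 to 11647 CPM in WT control cells and 9437 to 9683 CPM in WT compressed cells, and mitochondrially encoded reads made up 2.61% to 3.84% and 2.07% to 2.22% of counts. Their part in the lower values was not tested.

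These calls depended on which libraries were in the fit. The edgeR count of called members was 4 without WT control replicate 1. It was 0 without WT control replicate 2 or 3, without any 1 WT compressed library, or without KO control replicate 1 or 2. It was 5, 11 and 3 without KO compressed replicate 1, 2 and 3. The 11 genes called without replicate 2 were HK1, HK2, PFKFB3, PFKP, PFKL, GPI, ALDOA, SLC16A3, NDRG1 and VEGFA, lower, and P4HA1, higher. The libraries of KO cells enter because all groups shared 1 estimate of the spread. Without the 3 libraries that stood apart the count was 13, a fit chosen after seeing the data, with 11 lower and 2 higher, and the median of the 38 genes was then -0.21. Calls over all genes moved as well. They numbered 848 with all libraries, 0 to 3066 with each library left out and 3497 without those 3. The higher counts are thus not particular to this set.

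**Figure D3:**
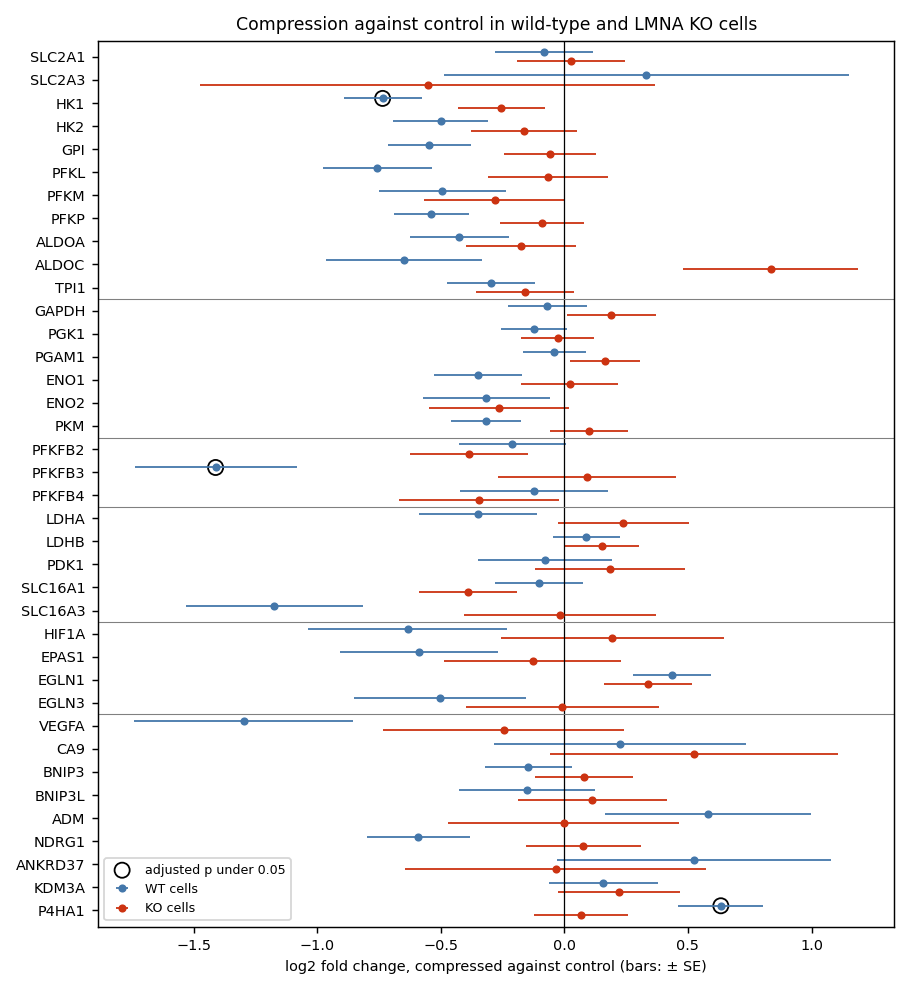
Log2 fold change of compressed against control cells (horizontal, bars ± SE from edgeR) for each of the 38 genes, in WT cells (blue) and KO cells (red), ordered by role, with circles around values of adjusted p under 0.05. Of the WT values 30 of 38 are below 0, against 20 of 38 of the KO values, and the circled genes are HK1, PFKFB3 and P4HA1 in WT cells.

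Among glucose entry and the upper steps, 10 of 11 genes had negative values in WT cells (90.9% beside 51.5% of all genes), with a median of -0.50. The test was passed by 1 of them, 9.09% beside 6.25% of all genes. HK1 (chromosome 4, 20449974 to 20519488, plus strand) stood at 282, 280 and 274 CPM in WT control cells and at 161, 179 and 161 CPM in WT compressed cells. The controls lay close together and well above the compressed libraries. The log2 fold change was -0.74 ± 0.16 (SE), with an adjusted p of 0.041 by edgeR with Benjamini-Hochberg adjustment. With each library left out in turn the adjusted p ranged from 0.00483 to 0.184 while the change stayed between -0.79 and -0.71.

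HK2, a known HIF target, held a larger FPKM share than HK1 in every library. It stood at 349, 262 and 286 CPM in WT control cells and at 198, 223 and 213 CPM after compression. The groups did not overlap, and the value of -0.50 ± 0.19 did not pass (edgeR adjusted p = 0.0989). The phosphofructokinases shared this direction. PFKP stood at 398, 512 and 467 CPM against 304, 325 and 319 CPM, a change of -0.54 ± 0.15 with an edgeR adjusted p of 0.0513. PFKL stood at 76.6, 107 and 77.3 CPM against 57.4, 62.0 and 34.7 CPM, a change of -0.76 ± 0.22 with an edgeR adjusted p of 0.0546. Neither gene's groups overlapped, and both passed without WT control replicate 1, at adjusted p-values of 0.0346 and 0.0469. They passed in 3 and 2 of the 11 fits that left out 1 library, with edgeR adjusted p-values of up to 0.192 and 0.213. HK2 was at -0.38 without WT control replicate 1, with an edgeR adjusted p of 0.193.

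GPI, which isomerises glucose phosphate to fructose phosphate, stood at 271, 293 and 262 CPM in WT control cells and 192, 203 and 170 CPM in WT compressed cells. The groups were clearly apart, with a value of -0.55 ± 0.17 and an edgeR adjusted p of 0.0595. ALDOA stood at 971, 1178 and 1121 CPM against 844, 886 and 706 CPM, again without overlap, at -0.43 ± 0.20 (edgeR adjusted p = 0.16). The most abundant gene of the upper steps, TPI1, stood at 359, 508 and 445 CPM against 347, 390 and 330 CPM, and here the lowest control fell inside the compressed range. PFKM had a value of -0.50 with no overlap, ALDOC one of -0.65 with overlap, SLC2A1 one of -0.08 and SLC2A3 one of 0.33.

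PFKFB3 (chromosome 2, 29728267 to 29748084, minus strand) had the largest change of the 38 genes in WT cells with all libraries. It stood at 723, 360 and 402 CPM in WT control cells and at 181, 215 and 161 CPM in WT compressed cells. Replicate 1 was the highest control by far, and the lowest control still lay above every compressed library. The log2 fold change was -1.41 ± 0.33 with an adjusted p of 0.0415 by edgeR with Benjamini-Hochberg adjustment. Without WT control replicate 1 it was -1.04, smaller in size than SLC16A3 at -1.28 and SLC2A3 at 1.24, with an adjusted p of 0.0511, and with each library left out in turn the adjusted p ran from 0.00586 to 0.19. PFKFB2, the second form by level, stood at 35.8, 37.2 and 37.8 CPM against 33.8, 30.6 and 31.3 CPM, a small difference of -0.21 ± 0.22 (edgeR adjusted p = 0.513). PFKFB4, the least abundant, had a value of -0.12.

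The 6 genes of the lower steps had values from -0.35 to -0.04 in WT cells, and none passed the edgeR test. By edgeR 1 of the 6 (PKM) was lower at an unadjusted p under 0.05, beside 16.4% of all genes. GAPDH stood at 2565, 3464 and 3241 CPM in WT control cells and at 2880, 2895 and 3056 CPM in WT compressed cells, with the compressed libraries inside the range of the controls. ENO1 stood at 1319, 1525 and 1447 CPM against 1140, 1185 and 1042 CPM, without overlap, at -0.35 ± 0.18 (edgeR adjusted p = 0.189). PKM stood at 625, 643 and 582 CPM against 489, 509 and 487 CPM. Its groups were also apart, with a value of -0.32 ± 0.14 and an edgeR adjusted p of 0.144. PGK1, PGAM1 and ENO2, the neuronal enolase, had values of -0.12, -0.04 and -0.32 and overlapping libraries.

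Lactate and pyruvate genes gave no call in WT cells, and 1 of the 5, SLC16A3, had libraries that did not overlap. SLC16A3 stood at 18.4, 27.6 and 19.7 CPM in WT control cells and at 9.53, 12.1 and 7.47 CPM in WT compressed cells. Each compressed library was lower than each control, with a log2 fold change of -1.17 ± 0.36 and an edgeR adjusted p of 0.0595. It passed in 1 of the 11 fits that left out 1 library, that without KO compressed replicate 2, at an edgeR adjusted p of 0.0091. The highest adjusted p among these fits was 0.233. LDHA, the form of lactate dehydrogenase that HIF raises, stood at 3689, 1751 and 2060 CPM against 1883, 1871 and 2131 CPM. Its value of -0.35 ± 0.24 came from replicate 1 of the controls and was 0.04 without it. LDHB stood at 481, 438 and 503 CPM against 488, 472 and 553 CPM and had a value of 0.09. PDK1, a kinase that blocks pyruvate dehydrogenase, and SLC16A1 had values of -0.08 and -0.10, with overlapping groups.

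Of the 4 oxygen sensing genes none passed in WT cells by edgeR. At an unadjusted p under 0.05, 1 of them (EGLN1) was higher, beside 15.4% of all genes. EGLN1, the main prolyl hydroxylase of HIF, stood at 134, 104 and 118 CPM in WT control cells and at 153, 138 and 190 CPM in WT compressed cells. Every compressed library was above every control, at 0.44 ± 0.16 (edgeR adjusted p = 0.0888). HIF1A, the main HIF alpha subunit, stood at 636, 136 and 189 CPM in WT control cells and at 202, 198 and 220 CPM in WT compressed cells. Replicate 1 of the controls was the highest of the 11 libraries and the other controls were below every compressed library. The value of -0.63 ± 0.40 (edgeR adjusted p = 0.289) accordingly changed sign without that library, to 0.34 with an adjusted p of 0.164. EPAS1, the alpha subunit HIF-2 alpha, and EGLN3 had values of -0.59 and -0.51 with no overlap, and -0.33 and -0.35 without WT control replicate 1.

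Hypoxia targets were divided in WT cells, with 5 of 9 values positive and a median of 0.16. P4HA1 (chromosome 4, 23597015 to 23662948, minus strand) stood at 118, 95.1 and 92.6 CPM in WT control cells and at 145, 138 and 190 CPM in WT compressed cells. The groups did not overlap. The log2 fold change was 0.63 ± 0.17 with an adjusted p of 0.0482 by edgeR with Benjamini-Hochberg adjustment, and with each library left out in turn the change ran from 0.48 to 0.75 and the adjusted p from 0.0152 to 0.211. NDRG1, a hypoxia-induced gene of epithelial differentiation and the most abundant target per length at 262 FPKM, stood at 1006, 1160 and 1082 CPM against 786, 818 and 552 CPM. All compressed libraries were below all controls, at -0.59 ± 0.21 (edgeR adjusted p = 0.0837).

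VEGFA, the angiogenic growth factor, stood at 158, 42.0 and 46.3 CPM in WT control cells and at 36.6, 36.8 and 26.3 CPM in WT compressed cells. The groups did not overlap, but only replicate 1 of the controls was far above the rest. The log2 fold change of -1.30 ± 0.44 (edgeR adjusted p = 0.0771) was -0.41 without that library, with an adjusted p of 0.349. BNIP3 and BNIP3L, receptors for the removal of mitochondria, had values of -0.15 and -0.15. The gene model of BNIP3L spans 31148663 to 31148830 on chromosome 25 and is only 168 bases long, so its FPKM is uncertain. ADM, ANKRD37, CA9 and KDM3A, a histone demethylase, had values between 0.16 and 0.58 with overlapping libraries, the first 3 at under 8 CPM in each library.

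**Figure D4:**
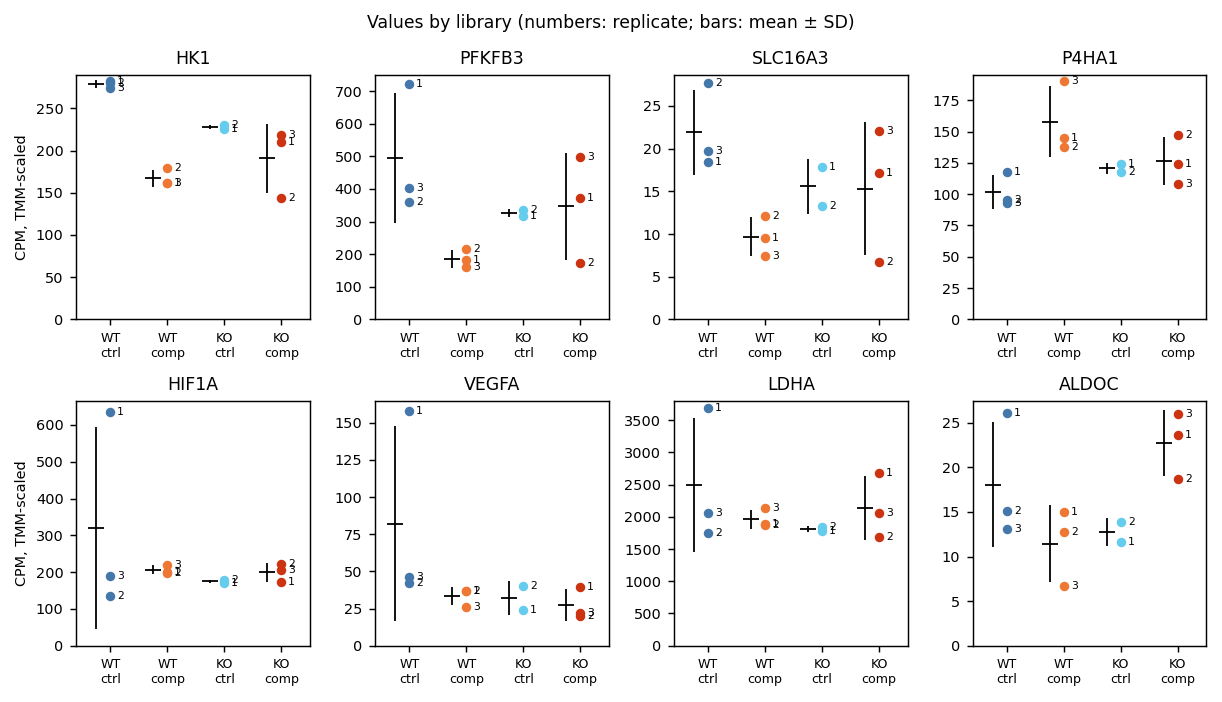
Scaled CPM (vertical, from 0) of 8 genes in each library, with the replicate number beside each point and the group mean ± SD as a cross. HK1, PFKFB3 and SLC16A3 are lower and P4HA1 higher in all 3 WT compressed libraries than in the WT controls, while HIF1A, VEGFA and LDHA have 1 high library, WT control replicate 1.

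WT control replicate 1 held several of the 38 genes at levels far from the other WT controls, most of all HIF1A and VEGFA. Against the mean of replicates 2 and 3, HIF1A was 3.91 times as high, VEGFA 3.57 times, LDHA 1.94 times, PFKFB3 1.90 times, ALDOC 1.85 times and EPAS1 1.60 times. SLC2A3 and ANKRD37 were 3.85 and 1.95 times as high at very low counts. In all, 3 of 38 genes were at least 2-fold higher, beside 5.13% of all genes tested. At least 1.5-fold higher were 8, beside 14.2%, and at least 1.5-fold lower were 3 (SLC2A1, ENO2 and PFKFB4), beside 14.0%. Mitochondrially encoded reads made up 3.84% of this library and 2.71% and 2.61% of the other WT controls, and their part in these differences was not tested. KO compressed replicate 2 was the lowest library of its group for 25 of 38 genes (65.8%), while it was the lowest for 42.1% of all genes tested. WT compressed replicate 3 was the lowest for 18 of 38 genes (47.4%), and for 42.3% of all genes.

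**Figure D5:**
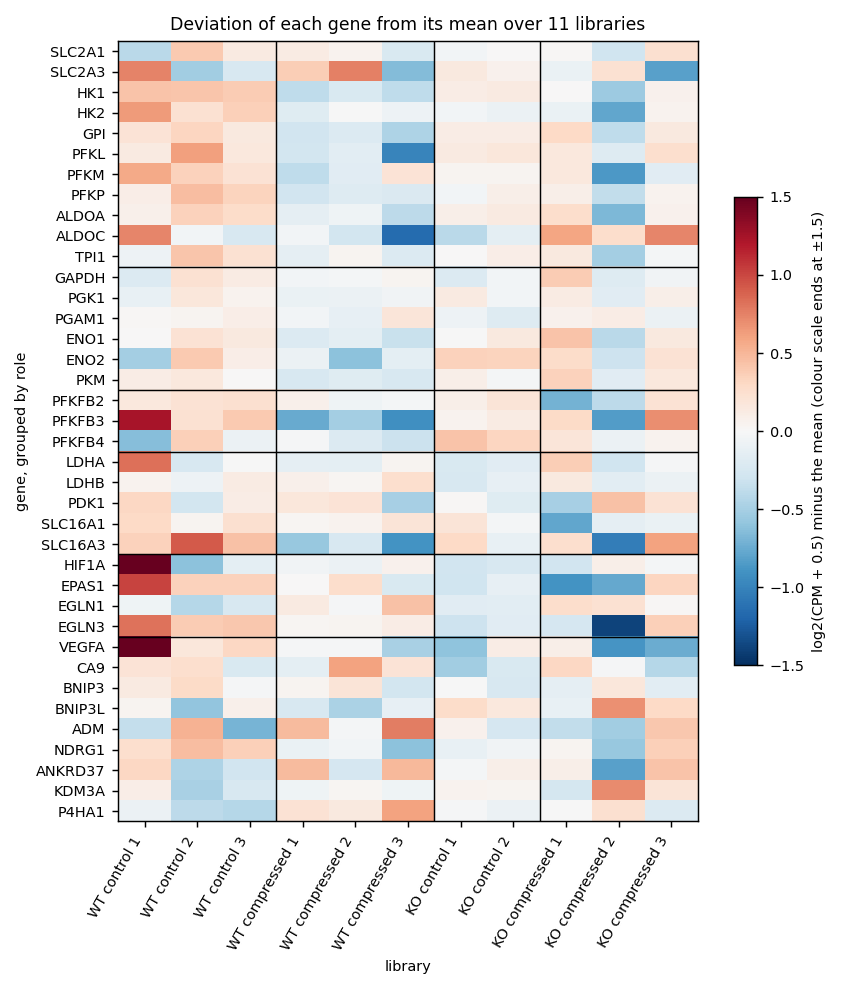
Deviation of log2(CPM + 0.5) from the gene's mean over 11 libraries (colour, red above and blue below, scale ending at 1.5) for 38 genes (rows, by role) and 11 libraries (columns, by group). HIF1A and VEGFA are darkest red in WT control replicate 1, the upper steps are mostly red in WT control and blue in WT compressed cells, and KO compressed replicate 2 is the bluest KO column.

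The second comparison asks the same of KO cells, and there no gene passed. The set as a whole had no common direction, with 20 of 38 values negative, 52.6% beside 50.5% of all genes, and a median of -0.005 beside -0.004. For glucose entry and the upper steps, 9 of 11 values were negative in KO cells too (81.8% beside 50.5%), with a median of -0.158. Of these 11 genes 1 lay wholly lower after compression (9.09% beside 14.0%). By edgeR 0 of 38 genes and 0 of 13560 (0.0%) had an adjusted p under 0.05, while 828 of all genes (6.11%) had an unadjusted p under 0.05. At that level 1 of the 38 was higher (ALDOC), beside 3.41% of all genes. DESeq2 called 0 of the 38 and 1 gene in all. Libraries did not overlap for 4 genes lower after compression (10.5% beside 14.0% of all genes) and for 2 higher (5.26% beside 13.5%).

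ALDOC, the aldolase of brain and a minor form here, stood at 11.6 and 13.9 CPM in KO control cells and at 23.6, 18.7 and 26.0 CPM in KO compressed cells. Every compressed library was higher, at 0.83 ± 0.35 with an edgeR adjusted p of 0.773. SLC16A1, the lactate and pyruvate transporter, stood at 226 and 193 CPM against 115, 180 and 186 CPM. Its compressed libraries were all lower, at -0.39 ± 0.20 (edgeR adjusted p = 0.773). EGLN1 stood at 124 and 125 CPM against 168, 163 and 141 CPM, again without overlap, at 0.34 ± 0.18 (edgeR adjusted p = 0.773).

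None of the genes called in WT cells passed the test in KO cells. HK1 stood at 226 and 230 CPM in KO control cells and at 210, 144 and 219 CPM in KO compressed cells, with all compressed libraries lower, at -0.26 ± 0.18 (edgeR adjusted p = 0.774). PFKFB3 stood at 318 and 335 CPM against 374, 172 and 497 CPM. Replicate 2 was well below both controls and the other compressed libraries above them, for a value of 0.09 ± 0.36. P4HA1 stood at 124 and 118 CPM against 124, 147 and 108 CPM, at 0.07 ± 0.19. SLC16A3 stood at 17.8 and 13.3 CPM against 17.2, 6.75 and 22.0 CPM, with a value of -0.02 ± 0.39. Without the 3 libraries that stood apart the values were -0.089 for HK1, 0.415 for PFKFB3, -0.056 for P4HA1 and 0.333 for SLC16A3. None of them was called in that fit.

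The third comparison sets KO against WT cells without compression. No member of the set passed, and the values leaned to lower RNA in KO cells. By edgeR 0 of 38 genes were called, beside 46 of all genes (0.339%), and DESeq2 called 0 of the 38. At an unadjusted p under 0.05 were 3 genes, all lower, and 434 of all genes (3.2%) were lower at that level. Negative values were found for 29 of 38 genes, 76.3% beside 51.7% of all genes, and the median was -0.16 beside -0.01. In size this median was below the pooled SD of 0.17 between replicates of the members' median log2 CPM. Both KO libraries lay below all WT libraries for 13 genes (34.2% beside 15.0%) and above them for BNIP3L alone (2.63% beside 16.9%). For glucose entry and the upper steps, 10 of 11 values were negative (90.9% beside 51.7%), with a median of -0.17. Of these 11 genes 5 lay wholly lower in KO cells (45.5% beside 15.0%). This comparison shares the WT control libraries with that of compression in WT cells, so the lower values in both are not independent of each other.

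VEGFA stood at 24.2 and 40.1 CPM in KO control cells against 158, 42.0 and 46.3 CPM in WT control cells. The second KO library was close to the lower WT libraries. The value was -1.35 ± 0.51 (edgeR adjusted p = 0.535) and -0.46 without WT control replicate 1. EPAS1 stood at 11.9 and 13.4 CPM against 30.2, 18.8 and 18.9 CPM. Both KO libraries were lower than every WT library, at -0.83 ± 0.36 (edgeR adjusted p = 0.61), and the value was -0.57 without WT control replicate 1. HK2 stood at 217 and 210 CPM against 349, 262 and 286 CPM, also without overlap, at -0.49 ± 0.22 (edgeR adjusted p = 0.622).

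EGLN3 and NDRG1 followed the same order. EGLN3 stood at 7.55 and 8.37 CPM in KO control cells and at 17.1, 12.5 and 12.7 CPM in WT control cells, at -0.82 ± 0.39 (edgeR adjusted p = 0.659). NDRG1 stood at 782 and 811 CPM against 1006, 1160 and 1082 CPM, at -0.44 ± 0.23 (edgeR adjusted p = 0.707). Neither gene's groups overlapped. NDRG1 alone of the 38 passed without the 3 libraries that stood apart, at -0.49 with an edgeR adjusted p of 0.0439, beside 799 of all genes. HIF1A had a value of -0.87 ± 0.46, which changed sign to 0.10 without WT control replicate 1.

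The fourth comparison sets KO against WT cells after compression, and no member passed. By edgeR 0 of 38 genes were called, beside 107 of all genes (0.789%), and DESeq2 called 0 of the 38. At an unadjusted p under 0.05, 6 genes were higher in KO cells (ALDOC, PFKFB3, PKM, PFKL, BNIP3L and GPI), beside 6.78% of all genes, and 1 was lower (SLC16A1), beside 4.49%. The median was 0.05 beside -0.01, and 17 of 38 values were negative (44.7% beside 51.0% of all genes). All KO libraries lay above all WT libraries for 3 genes (7.89% beside 7.92%) and below them for 1 (2.63% beside 7.82%), which is near the background.

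ALDOC stood at 23.6, 18.7 and 26.0 CPM in KO compressed cells and at 14.99, 12.7 and 6.66 CPM in WT compressed cells, without overlap, at 0.99 ± 0.32 (edgeR adjusted p = 0.213). PKM stood at 736, 512 and 644 CPM against 489, 509 and 487 CPM. The lowest KO library was just above the highest WT library, at 0.35 ± 0.14 (edgeR adjusted p = 0.354). PFKFB3 stood at 374, 172 and 497 CPM against 181, 215 and 161 CPM, and only replicate 2 of the KO group lay among the WT libraries. Its value was 0.90 ± 0.32 with an edgeR adjusted p of 0.276. Without KO compressed replicate 2 it was 1.23 with an adjusted p of 0.0243, and PFKFB3 was then called. SLC16A1 stood at 115, 180 and 186 CPM in KO compressed cells and at 202, 206 and 227 CPM in WT compressed cells, lower in every KO library, at -0.40 ± 0.18 (edgeR adjusted p = 0.411).

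Whether compression acted differently in the 2 genotypes was tested by the interaction of genotype and compression. By edgeR 0 of 38 genes and 0 of all genes (0.0%) passed. At an unadjusted p under 0.05 were 650 of all genes (4.79%). Of the 38 genes, 3 had positive differences at that level (beside 2.53%) and 1 a negative one (beside 2.26%), and DESeq2 called 0 genes. The median difference, KO response minus WT response, was 0.26 beside 0.01, and 8 of 38 values were negative (21.1% beside 48.7%). The pooled SD between replicates of the members' median log2 CPM was 0.17, and 4 group means enter this difference. The 3 smallest p-values belonged to differences of 1.503 ± 0.49 for PFKFB3, 1.48 ± 0.47 for ALDOC and -0.57 ± 0.26 for P4HA1, each with an edgeR adjusted p of 0.939. A weaker response in KO than in WT cells was therefore not shown for any of these genes with all libraries. Without the 3 libraries that stood apart 4 genes passed by edgeR, beside 362 of all genes. They were PFKFB3 at 1.36 (adjusted p = 0.0153), SLC16A3 at 1.46 (0.0443), NDRG1 at 0.77 (0.0458) and PFKP at 0.68 (0.0497). This fit was chosen after seeing the data and leaves 2 libraries in each group.

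Other genes of the same pathways were taken from 7 lists with 116 genes found and 96 tested. In WT cells after compression 3 rose and 3 fell by edgeR with Benjamini-Hochberg adjustment (6.25% of them, beside 6.25% of all genes). Negative values were found for 61 of 96 (63.5% beside 51.5%), with a median of -0.14 beside -0.02. None was called by edgeR in KO cells or in the interaction. At an unadjusted p under 0.05 there were 10 and 7 of the 96, beside 6.11% and 4.79% of all genes. Between KO and WT cells edgeR called 1 without compression (1.04% beside 0.339%) and 2 after it (2.08% beside 0.789%). Each of the 6 calls in WT cells was kept in 3 or 4 of the 11 fits that left out 1 library, and 5 of them were kept without WT control replicate 1.

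In the HIF pathway list, 1 of 13 genes rose and 1 fell in WT cells, beside 3.85% and 2.4% of all genes. So few genes cannot be read against those shares. EGLN2, the third prolyl hydroxylase of HIF, stood at 58.5, 95.3 and 77.5 CPM in WT control cells and at 36.3, 45.6 and 34.4 CPM in WT compressed cells. Its groups did not overlap, and it fell by 0.99 ± 0.22 (edgeR adjusted p = 0.041). RBX1, the RING subunit of the ubiquitin ligase that works with VHL, stood at 105, 112 and 104 CPM against 167, 150 and 198 CPM. It rose by 0.68 ± 0.15 (edgeR adjusted p = 0.041). VHL itself had a value of -0.66 ± 0.19 with an edgeR adjusted p of 0.0555.

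Of 30 further hypoxia targets tested, 1 rose and 0 fell by edgeR in WT cells, with 3 higher and 5 lower at an unadjusted p under 0.05. Called were 3.33% of the list beside 6.25% of all genes, of which 15.4% were higher and 16.4% lower at the unadjusted p, so the list lay near or below the background. The riser was CCNG2, a cyclin linked to growth arrest, at 1.00 ± 0.26 (edgeR adjusted p = 0.0448). PPP1R3C, a glycogen-targeting phosphatase subunit, was higher in KO than in WT cells. It stood at 24.9, 18.2 and 21.4 CPM in WT control cells and at 50.4 and 47.5 CPM in KO control cells, a log2 difference of 1.19 ± 0.21 (edgeR adjusted p = 0.0305). After compression it stood at 33.8, 25.5 and 29.4 CPM in WT cells and at 66.3, 58.1 and 85.3 CPM in KO cells, a difference of 1.24 ± 0.20 (edgeR adjusted p = 0.00867). The call without compression was lost in 6 of the 11 fits that left out 1 library, and the call after compression in 1 of them.

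Around pyruvate, MPC1, a subunit of the mitochondrial pyruvate carrier, rose in WT cells, from 22.3, 21.1 and 17.6 CPM to 48.1, 31.3 and 55.2 CPM, by 1.14 ± 0.26 (edgeR adjusted p = 0.041). It was the only call among 12 genes of pyruvate entry to mitochondria (8.33% beside 6.25% of all genes). At an unadjusted p under 0.05 by edgeR, 4 of the 12 were higher, beside 15.4% of all genes, and 0 lower, beside 16.4%. PC, pyruvate carboxylase, which feeds pyruvate into gluconeogenesis, fell from 64.9, 38.2 and 37.7 CPM to 19.6, 27.3 and 12.6 CPM, by 1.24 ± 0.30 (edgeR adjusted p = 0.0428, and 0.0571 without WT control replicate 1). PCK1, the cytosolic enzyme of gluconeogenesis, was higher in KO than in WT compressed cells, at 7.92, 6.49 and 14.2 CPM against 2.61, 2.71 and 0.807 CPM, by 2.20 ± 0.46 (edgeR adjusted p = 0.0447), a call kept in 3 of the 11 fits that left out 1 library. Of the other 16 tested genes of glycolysis and gluconeogenesis, PC was the only call in WT cells, 6.25% of them beside 6.25% of all genes. Negative were 12 of 16 values (75.0% beside 51.5%), with a median of -0.575. At an unadjusted p under 0.05 by edgeR, 8 were lower, beside 16.4% of all genes, and 0 higher, beside 15.4%. For 7 of the 16 the compressed libraries lay wholly lower (43.8% beside 20.8%).

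Among 11 glycogen genes tested, 0 rose and 1 fell in WT cells by edgeR, with 2 higher and 2 lower at an unadjusted p under 0.05, few genes to read against the 15.4% and 16.4% of all genes. GYS1, glycogen synthase, fell from 25.4, 26.6 and 23.6 CPM to 12.9, 16.4 and 10.8 CPM, by 0.91 ± 0.23 (edgeR adjusted p = 0.0441). Every compressed library was below every control. The pentose phosphate branch gave 0 calls among 8 genes by edgeR in WT cells, with 5 at an unadjusted p under 0.05. All 5 were lower, 6 of 8 had every compressed library below every control (75.0% beside 20.8% of all genes), and the median was -0.43. Glucose-sensing regulators also gave 0 calls among 6 tested genes by edgeR, with 2 higher and 2 lower at an unadjusted p under 0.05, again too few genes to read against those shares.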

How the data were processed

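Polyadenylated RNA of 11 MDCKII samples was sequenced. CASAVA, FastQC, HISAT2 2.0.5 and the build CanFam3.1 are named in the submitters' processing notes. No source used here gives the gene counter, annotation release, strand setting or filters, so overlapping and antisense genes cannot be told apart. The authors deposited raw counts for each gene, and FPKM values that equal these counts divided by gene length and by a scaled library size (0.964 to 1.049 times the library's counts). Of the table's rows, 0 named no gene. Totals of 10420214 to 17999623 counts leave genes near 1 CPM with few reads.

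Members were matched by gene name (21) or, where that was a placeholder, by the protein match in the description (17). The rule matched 156 rows, of which 1 per gene was kept, on the chromosome where RefSeq (UU_Cfam_GSD_1.0) places the symbol. No coordinates of that build were used, and promoters and proteins were not analysed here. HIF3A, SIAH2 and HIGD1A of the further lists were not found by name. A gene of these lists and an immune marker are not reported here and enter no count of their lists. The members and lists were chosen with earlier results of these data known.

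The counts entered edgeR 4.0.16 under R 4.3.3 (filterByExpr, 13560 genes, TMM scaling, 1 quasi-likelihood fit of 4 groups, 7 residual degrees of freedom). All tests were two-sided, and p-values were adjusted by Benjamini-Hochberg over all genes, with 0.05 as the threshold. CPM are TMM-scaled, ± after a log2 fold change is the SE, and non-overlap compares CPM of single libraries. No pair of replicates was identical or within sampling noise of each other. The tests were also run on simulated counts with known changes. No library was made to stand apart in them, so they do not show how the tests act on such libraries. Named are LMNA, every called member, the 3 smallest p-values per comparison, the 2 most abundant members of each role, the isoenzyme sets, and up to 3 called genes in each direction of each further list. Other members named with values were chosen after their values were seen.

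The alternatives tried were RLE scaling, scaling by library size, DESeq2 1.42.0, a filter of 1 CPM in 3 libraries or none, limma 3.58.1 on log2(FPKM + 1) with and without a filter of 1 FPKM in 2 libraries and on log2(FPKM + 0.1), a fit of the groups compared alone, a term for replicate number and leaving out each library. Summing the copies of each member and leaving out 3 libraries that stood apart were added after seeing the data.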

Additional observations from a re-analysis of the deposited data

How the results depend on the processing

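Of the 15 values with the smallest p that the rule for named genes takes, none changed sign under any alternative run. HIF1A, LDHA and PDK1, outside them, changed sign in WT compression without WT control replicate 1. The members' median in WT compression stayed between -0.35 and -0.21. Of the 342 alternative values of the 15 tests, 301 kept their side of the threshold, 36 lost a call and 5 gained one. Only the 3 members called in WT compression had a call to lose. HK1 lost it in 11 alternatives and kept it in 12. PFKFB3 lost it in 12 and kept it in 11, and P4HA1 lost it in 13 and kept it in 10. In WT compression 3 members were called. The count was 9 with DESeq2, 9 with no filter and 8 in the fit of the 2 groups alone. It was 0 with limma on log2(FPKM + 1), log2(FPKM + 0.1) and log2(FPKM + 1) with no filter, 0 to 11 with each library left out, and 13 without the 3 libraries that stood apart. With RLE scaling and with library size alone P4HA1 was not called (adjusted p = 0.0501 and 0.0518). Without those 3 libraries 1 member was called between KO and WT control cells, 4 between KO and WT compressed cells and 4 in the interaction, where each count was 0 with all libraries. Between KO and WT compressed cells 0 to 1 were called with each library left out. The cause of these shifts was not tested. With the replicate number as a block 0 members were called in WT compression, and HK1 had an adjusted p of 0.111. Deviations from the group mean of same-numbered WT control and WT compressed libraries had correlations of -0.12, 0.20 and 0.01. Those of same-numbered compressed libraries of WT and KO cells were -0.02, -0.32 and -0.35. With so few libraries per group these values cannot decide whether the numbers pair the samples, and the labels do not state it.

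Over all genes, 848 were called in WT compression by edgeR, 2494 by DESeq2, 1754 with no filter, 2069 in the fit of the 2 groups, 0, 1 and 0 by limma, 0 with the block, 0 to 3066 with each library left out and 3497 without 3 libraries. Between KO and WT control cells 46 were called, with 127 by DESeq2, 90 with no filter, 16, 8 and 21 by limma, 15 with the block, 6 to 106 with each library left out and 799 without 3 libraries. Between KO and WT compressed cells 107 were called, with 370, 201, 59, 50 and 57, 53, 39 to 349 and 723 in that order, and 64 in the fit of the 2 groups. In KO compression 0 were called, with 1 by DESeq2, 1, 0 and 2 by limma and 13 without 3 libraries. In the interaction 0 were called, with 1 by limma with no filter, 0 to 1 with each library left out and 362 without 3 libraries. Depth limits SLC2A3, CA9 and ANKRD37, which stood near 1 CPM.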
